A study of Mus musculus with 18 samples.

Results

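Expression of 50 Wnt pathway genes was followed in mouse neural stem cells (NSCs) and in the astrocytes made from them. The genes came from a list of 51 Wnt ligands, receptors, inhibitors and intracellular effectors, matched by symbol to the 27997 genes of the deposited table. The remaining gene on the list, Wnt3a, was not analysed here. By role the list held 9 ligands, 12 receptors and co-receptors, 8 genes of the R-spondin axis, 9 secreted inhibitors, 9 cytoplasmic components and 4 transcription factors.

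The 18 RNA-seq libraries formed 6 groups of 3, from 3 adherent mouse cell lines. A pair of lines came from spinal cords of lineage tracer mice, in which Cre recombinase expressed from the Clec9a locus (the gene of DNGR-1) permanently switches on a fluorescent reporter at Rosa26. The tdTomato line carried the genotype DNGR-1 +/- Tom+/-, the EYFP line DNGR-1 +/- EYFP+/-, and both were sorted for the reporter from neurospheres. The hippocampal line was labelled DNGR-1+/+ and was grown from the hippocampus of GlastCre mice with a floxed Huwe gene and a Rosa26 EYFP reporter. NSCs of every line were collected after 4 days with bFGF and EGF. Astrocytes were collected after 6 days with 20 ng/ml BMP4 in medium listed without those growth factors, so that the fates differed in agents and in time. The 3 replicates of a group were consecutive passages of 1 line, so every error and p-value below measures the spread between cultures and not between animals. Tissue, genotype and line cannot be told apart in a comparison of the traced lines with the hippocampal line.

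Wnt proteins are secreted lipid-modified ligands that bind Frizzled receptors together with the co-receptors Lrp5 or Lrp6. In the canonical branch this binding inactivates the complex of Axin, Apc and Gsk3b that otherwise marks beta-catenin (Ctnnb1) for destruction, and beta-catenin then works with Tcf and Lef factors on target genes, several of which (Axin2, Nkd1, Notum, Znrf3, Rnf43, Lgr5) feed back on the pathway. In the central nervous system the pathway is known for its part in patterning and in the proliferation and differentiation of neural progenitors.

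Values are the deposited normalised log2 expression values. By their form they appear compressed for low genes, so that a difference at a low level may be understated. Of the 50 genes, 41 reached a normalised value of 10 (3.32 on the log2 scale) in at least 3 of the 18 libraries and were tested with limma, among 15448 genes in all. A gene was called when its Benjamini-Hochberg adjusted p over all genes tested was under 0.05. The 9 genes below that minimum were Wnt3, Wnt8b, Dkk1, Dkk2, Dkk3, Sfrp5, Rspo1, Rspo2 and Lgr6, and their highest value in any library was 3.40, for Rspo2 in a tdTomato astrocyte library. Dkk1 and Dkk2, classical Lrp5/6 antagonists, were below 0 in all 18 libraries. Another 4 genes, Notum, Rspo3, Sfrp2 and Wnt11, reached the minimum in 9 libraries or fewer.

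Across the whole table, replicates differed by a median of 0.0746 to 0.126 on the log2 scale in the 18 replicate pairs. The labels were checked against markers. In the mean of the 3 lines, 7 of the 8 astrocyte markers were higher in astrocytes and none was lower, with Gfap up by 6.53, whereas the proliferation marker Mki67 fell by 6.21. Of the NSC markers, Egfr and Mki67 were lower in astrocytes of every line, and Sox2 and Vim, against the label, were higher in every line. Nes fell by 3.18 and 3.05 in the traced lines, whereas its hippocampal change of -0.22 did not pass the test (adjusted p 0.0634). Hes5 also went against the label in the tdTomato line, where it rose by 1.32 (adjusted p 4.41e-05), had -0.12 in the EYFP line without passing the test and fell by 2.26 in the hippocampal line. All 3 ependymal markers were higher in astrocytes, their summed linear level ranging from 698.9 to 1451 in NSCs and from 2062 to 5128 in astrocytes. Ccdc153, of this list, passed the filter on low values only through hippocampal astrocytes, which fixed its direction. The oligodendrocyte lineage list ranged in sum from 17930 to 21550 in NSCs and from 3555 to 8116 in astrocytes, with Olig2 and Pdgfra lower and Mog below 0 throughout. Of the neuron list, Rbfox3, Dcx and Tubb3 were higher in the mean of the lines, by 1.73, 1.47 and 0.85. Map2 fell by 0.35 and made up most of the sum of that list, which ranged from 22360 to 25120 in NSCs and from 15380 to 20750 in astrocytes. Microglia, endothelial and mural or fibroblast lists summed to at most 230.7 in any library, with Ptprc, Aif1, Cdh5 and Col1a2 below 0 in every library. Single genes of these lists did move with the groups. Rgs5 lay between 2.04 and 2.96 in NSCs and between 5.64 and 6.14 in astrocytes, and Acta2 fell by 2.65, 3.86 and 1.30 in the tdTomato, EYFP and hippocampal lines. Tmem119 differed between traced and hippocampal cultures by 2.53 as NSCs and 2.70 as astrocytes. It passed the filter only through traced libraries, which set that direction. As NSCs Tmem119 gave 6.26, 6.33 and 5.85 (tdTomato), 2.40, 1.94 and 2.76 (EYFP) and 1.73, 1.74 and 1.71 (hippocampal). The part of these shifts in the Wnt pathway results was not tested, and in bulk libraries fewer cells of a type and less RNA per cell cannot be told apart. Huwe1 lay between 12.97 and 13.38 in all 18 libraries, the hippocampal line included.

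The canonical branch acts on DNA through Tcf and Lef factors, whose core motif is CTTTGAT, read as ATCAAAG on the other strand. RefSeq promoter windows of 300 bases, from 250 before to 50 after a start site (GRCm38.p6), matched 32 of the 50 genes with 42 windows. The motif was found on either strand in 2 of the 42 windows (4.76%) and in 3.73% of all 32851 windows. The 2 windows that held it belonged to the ligand genes Wnt5b (chr6:119449337-119449636, minus strand) and Wnt11 (chr7:98834862-98835161, plus strand), both higher in astrocytes of every line below. They are shown with the windows of the target gene Axin2 (chr11:108920099-108920398, plus strand) and of the inhibitor gene Wif1 (chr10:121033754-121034053, plus strand), in which these letters were not found. Among the 8 target genes and the inhibitors, these had the largest difference between origins in their change on differentiation. Sequences run 5′ to 3′ on the gene's strand, with the motif in capitals.
Wnt5b: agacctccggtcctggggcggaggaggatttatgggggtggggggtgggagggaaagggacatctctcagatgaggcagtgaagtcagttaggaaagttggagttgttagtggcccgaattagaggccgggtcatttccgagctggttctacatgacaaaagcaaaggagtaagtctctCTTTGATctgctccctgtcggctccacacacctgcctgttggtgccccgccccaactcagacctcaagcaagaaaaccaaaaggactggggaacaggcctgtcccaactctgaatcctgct
Wnt11: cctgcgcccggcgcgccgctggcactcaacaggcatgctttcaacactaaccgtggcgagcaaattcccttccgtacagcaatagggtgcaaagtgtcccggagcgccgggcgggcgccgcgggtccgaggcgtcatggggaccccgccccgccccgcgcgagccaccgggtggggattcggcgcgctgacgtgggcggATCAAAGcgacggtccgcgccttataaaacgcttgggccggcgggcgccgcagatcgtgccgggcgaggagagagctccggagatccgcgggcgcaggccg
Axin2: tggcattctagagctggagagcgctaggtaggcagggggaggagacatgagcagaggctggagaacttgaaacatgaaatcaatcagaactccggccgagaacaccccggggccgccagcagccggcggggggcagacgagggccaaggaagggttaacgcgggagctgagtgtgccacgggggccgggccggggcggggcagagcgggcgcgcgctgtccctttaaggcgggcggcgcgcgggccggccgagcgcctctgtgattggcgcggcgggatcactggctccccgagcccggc
Wif1: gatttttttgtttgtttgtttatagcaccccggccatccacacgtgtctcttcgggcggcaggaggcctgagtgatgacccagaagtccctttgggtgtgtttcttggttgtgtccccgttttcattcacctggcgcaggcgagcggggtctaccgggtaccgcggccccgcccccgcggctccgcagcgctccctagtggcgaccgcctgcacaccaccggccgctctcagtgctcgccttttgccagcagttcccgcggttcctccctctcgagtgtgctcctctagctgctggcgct
The motif began 71 bases before the start site of the Wnt5b window shown. In the Wnt11 window shown it began 51 bases before the start site, on the opposite strand. The other windows of Wnt5b and Wnt11 did not hold it. Among them was the Wnt5b window at chr6:119544298-119544597, which covers the 5′ end of the gene. A match describes the letters only.

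Differentiation changed most of the pathway in each line, in both directions, as it changed most of all genes tested. In the mean of the 3 lines 19 of the 41 tested genes were higher in astrocytes and 21 were lower, against 44.3% and 42% of all genes tested. The tdTomato line had 18 higher and 17 lower (all genes 39.9% and 38.5%), the EYFP line 17 and 20 (38.2% and 37%), and the hippocampal line 15 and 20 (39% and 37.3%). The median absolute change of the 41 genes was 0.87 in the tdTomato line, 0.94 in the EYFP line and 0.76 in the hippocampal line, where the medians over all genes were 0.55, 0.49 and 0.51. The signed medians were 0.055, 0.018 and -0.18, beside 0.014 to 0.017 for all genes. Below, changes with their standard errors (SE) are given in the order tdTomato, EYFP and hippocampal line.

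Called higher in all 3 lines were 12 genes (28.1% of all genes tested were), namely Wnt5b, Wnt11, Fzd3, Fzd5, Fzd7, Fzd8, Lrp6, Lgr4, Wif1, Ctnnb1, Lef1 and Tcf7l1. Called lower in all 3 were 16 (27.8% of all genes), namely Wnt5a, Wnt7a, Wnt7b, Fzd2, Fzd9, Fzd10, Lgr5, Znrf3, Rnf43, Sfrp1, Sfrp2, Axin1, Apc, Nkd1, Dvl2 and Tcf7. Wnt11 and Sfrp2 passed the filter on low values only through the fate in which they were higher, which fixed their direction, and the same holds for Notum and its astrocytes below. Another 12 were called in 1 or 2 lines and in 1 direction, Sfrp4 in none, and none was called in opposite directions.

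**Figure D1:**
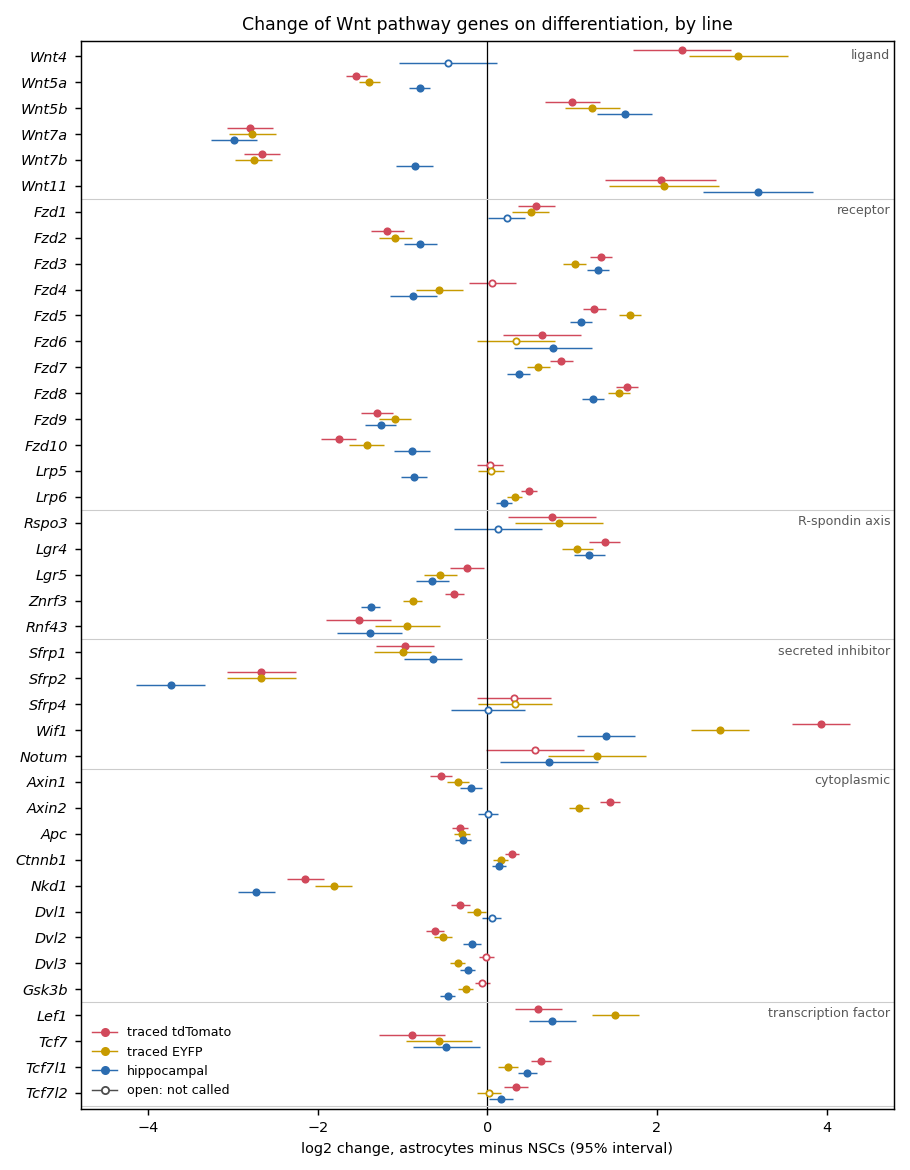
Log2 change from NSCs to astrocytes (x axis) of each of the 41 tested Wnt pathway genes, grouped by role, in the tdTomato (red), EYFP (yellow) and hippocampal (blue) lines; points are differences between means of 3 libraries, bars 95% intervals, filled points were called. Wnt7a lies between -2.77 and -2.99 in the 3 lines, while Wnt4, Axin2 and Lrp5 separate the hippocampal line from both traced lines.

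Among the ligands, Wnt7a, Wnt7b and Wnt5a fell and Wnt5b rose in every line, and Wnt4 was called in the traced lines alone. Wnt7a, a ligand expressed by neural progenitors, measured 9.36, 9.32 and 9.30 in the tdTomato NSCs and 6.51, 6.75 and 6.30 in the tdTomato astrocytes. In the EYFP line it measured 9.89, 9.94 and 9.82 and then 7.24, 6.78 and 7.32, and in the hippocampal line 10.09, 10.10 and 10.13 and then 7.24, 6.85 and 7.26. No NSC library overlapped an astrocyte library, and the changes of -2.80 ± 0.13 (SE), -2.77 ± 0.13 and -2.99 ± 0.13 all passed the test (adjusted p 1.32e-12, 1.63e-12 and 4.69e-13). The difference in change between origins was 0.20, with an interval of -0.14 to 0.54.

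Wnt7b, the close relative of Wnt7a, separated the lines in astrocytes. Its values were 10.10, 9.96 and 9.99 in tdTomato NSCs against 7.56, 7.14 and 7.36 in their astrocytes. The EYFP libraries gave 11.09, 10.97 and 10.88 as NSCs and 8.32, 7.99 and 8.35 as astrocytes. Hippocampal NSCs lay between those of the traced lines at 10.33, 10.37 and 10.40, but their astrocytes, at 9.59, 9.56 and 9.37, lay above every traced astrocyte library. The change was -2.66 ± 0.10 and -2.76 ± 0.10 in the traced lines and -0.86 ± 0.10 in the hippocampal line, a difference in change of -1.85 ± 0.12 (limma, adjusted p 2.59e-09).

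Wnt5a, a ligand known mainly for beta-catenin-independent signalling, stood at 11.89, 11.85 and 11.78 in tdTomato NSCs, 11.81, 11.83 and 11.86 in EYFP NSCs and 11.74, 11.71 and 11.65 in hippocampal NSCs. As astrocytes the same lines gave 10.31, 10.22 and 10.35 (tdTomato), 10.40, 10.30 and 10.61 (EYFP) and 10.87, 10.93 and 10.90 (hippocampal). The 3 hippocampal astrocyte libraries were above all 6 traced ones, and the fall was larger in the traced lines by 0.67 (SE 0.073, adjusted p 7.80e-07). Wnt5b, its paralogue, went the other way. It rose from 5.41, 5.40 and 5.24 to 6.59, 6.00 and 6.47 in the tdTomato line and from 5.56, 5.51 and 5.20 to 6.87, 6.41 and 6.69 in the EYFP line. In the hippocampal line it rose from 6.28, 6.04 and 6.00 to 7.70, 7.70 and 7.79, which put the hippocampal astrocytes 1.22 above the mean of the traced ones (SE 0.13, adjusted p 3.72e-07).

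Wnt4 had the largest difference in change between origins of the ligands. It was low in traced NSCs, at 4.00, 4.21 and 3.20 (tdTomato) and 4.15, 4.40 and 3.46 (EYFP), and higher in hippocampal NSCs at 6.50, 6.25 and 6.46. Traced astrocytes reached 6.42, 5.94 and 5.93 (tdTomato) and 7.42, 6.92 and 6.55 (EYFP), and hippocampal astrocytes gave 6.13, 5.98 and 5.71. Thus the astrocytes of the 3 lines lay between 5.71 and 7.42, while the NSCs did not overlap between origins. The rise was 2.29 ± 0.27 in the tdTomato line and 2.96 ± 0.27 in the EYFP line, the hippocampal change of -0.47 ± 0.27 did not pass the test (adjusted p 0.129), and the difference in change was 3.10 ± 0.34 (adjusted p 8.14e-07). Wnt4 lies at chr4:137277489-137299726 (GRCm38, plus strand).

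Wnt11 ran between 1.44 and 2.05 in NSCs, under the minimum, and measured 4.17, 3.35 and 3.87 in tdTomato, 4.04, 2.87 and 4.20 in EYFP and 5.00, 4.81 and 4.71 in hippocampal astrocytes, so that it entered the test only through its astrocytes and its rise was fixed by that.

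**Figure D2:**
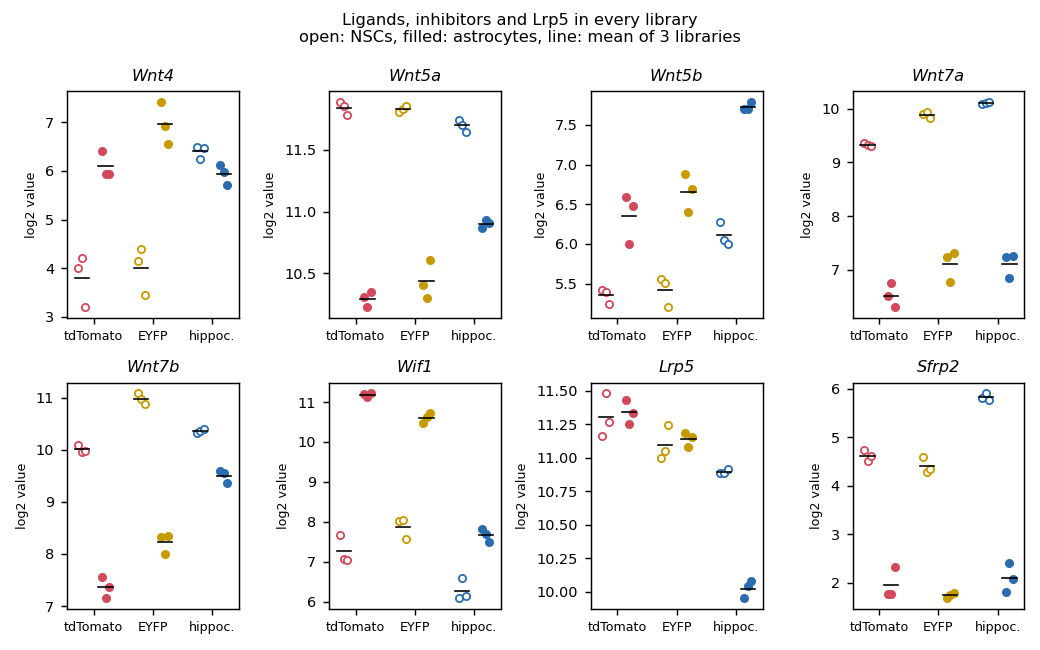
Log2 value (y axis, scale differing between panels and not starting at 0) of 5 ligands, the inhibitors Wif1 and Sfrp2 and the co-receptor Lrp5 in each of the 18 libraries by line, NSCs open and astrocytes filled, with a line at each mean of 3. Wnt4 is low only in the 6 traced NSC libraries, and Wif1 is above 10 only in the 6 traced astrocyte libraries.

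The Frizzled receptors split into a group that rose and a group that fell. Fzd3, Fzd5, Fzd7 and Fzd8 rose in all lines, and Fzd2, Fzd9 and Fzd10 fell in all lines. Fzd8 showed the largest rise in the mean of the lines, 1.48 ± 0.036, from 7.98, 8.04 and 7.99 to 9.73, 9.52 and 9.71 in the tdTomato line, from 7.69, 7.77 and 7.71 to 9.30, 9.22 and 9.30 in the EYFP line and from 7.84, 7.997 and 7.93 to 9.16, 9.14 and 9.20 in the hippocampal line. Every astrocyte library was over 1 above every NSC library, with changes of 1.65 ± 0.062, 1.55 ± 0.062 and 1.25 ± 0.062.

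Fzd5 gave 8.51, 8.58 and 8.52 in tdTomato, 8.22, 8.28 and 8.28 in EYFP and 8.66, 8.70 and 8.48 in hippocampal NSCs. The corresponding astrocytes gave 9.90, 9.70 and 9.79 (tdTomato), 10.01, 9.89 and 9.93 (EYFP) and 9.79, 9.70 and 9.67 (hippocampal), all between 9.67 and 10.01. The EYFP line started lowest and had the largest change, 1.68 ± 0.064 against 1.26 ± 0.064 and 1.10 ± 0.064. Fzd5 shares 17.8% of its exon bases with the gene Gm38058 on the other strand, and whether the counting used strand is not given in the sources used here.

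Fzd3, a receptor known for axon guidance and tissue polarity, rose by 1.34 ± 0.062, 1.03 ± 0.062 and 1.30 ± 0.062. Its NSC values were 10.98, 10.89 and 10.78 (tdTomato), 11.42, 11.39 and 11.16 (EYFP) and 11.08, 11.10 and 10.94 (hippocampal). In astrocytes it was nearly level over the lines, at 12.24, 12.18 and 12.24 (tdTomato), 12.34, 12.37 and 12.34 (EYFP) and 12.30, 12.32 and 12.39 (hippocampal). Fzd7 rose less, by 0.87 ± 0.065, 0.60 ± 0.065 and 0.37 ± 0.065.

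Of the receptors that fell, Fzd10 changed most in the traced lines. It measured 9.63, 9.77 and 9.65 (tdTomato), 9.44, 9.56 and 9.55 (EYFP) and 9.71, 9.64 and 9.58 (hippocampal) in NSCs, the tdTomato and hippocampal libraries overlapping and the EYFP libraries below both. Astrocytes measured 7.98, 8.07 and 7.73 (tdTomato), 8.17, 7.91 and 8.19 (EYFP) and 8.96, 8.58 and 8.72 (hippocampal), with all hippocampal libraries above the traced ones, and the changes were -1.75 ± 0.099, -1.42 ± 0.099 and -0.89 ± 0.099.

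Fzd9 stood at 12.08, 12.36 and 12.35 in tdTomato NSCs, 11.78, 11.70 and 11.82 in EYFP NSCs and 11.74, 11.97 and 12.01 in hippocampal NSCs. Its astrocytes gave 10.95, 11.07 and 10.86 (tdTomato), 10.69, 10.51 and 10.82 (EYFP) and 10.61, 10.73 and 10.61 (hippocampal), changes of -1.30 ± 0.087, -1.09 ± 0.087 and -1.26 ± 0.087. The difference in its change between origins was 0.061, with an interval of -0.17 to 0.29. Fzd2 gave 9.32, 9.37 and 9.46 (tdTomato), 9.54, 9.56 and 9.74 (EYFP) and 9.33, 9.35 and 9.55 (hippocampal) in the NSCs and 8.30, 8.05 and 8.26 (tdTomato), 8.44, 8.48 and 8.66 (EYFP) and 8.72, 8.42 and 8.71 (hippocampal) in astrocytes, without overlap between fates.

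The co-receptors differed from each other. Lrp6 rose a little in every line, by 0.49 ± 0.043, 0.32 ± 0.043 and 0.19 ± 0.043. Lrp5 changed in the hippocampal line alone among the 3 tests, where it dropped from 10.88, 10.89 and 10.92 to 9.95, 10.04 and 10.08, a change of -0.87 ± 0.073 (adjusted p 4.28e-09). Traced NSCs gave 11.16, 11.48 and 11.27 (tdTomato) and 11.00, 11.05 and 11.24 (EYFP), and traced astrocytes 11.43, 11.25 and 11.34 (tdTomato) and 11.18, 11.08 and 11.16 (EYFP). The traced changes were 0.035 ± 0.073 and 0.044 ± 0.073 and did not pass the test, and the difference in change between origins was 0.91 ± 0.089 (adjusted p 2.39e-07).

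Of the remaining receptors, Fzd1 rose in both traced lines, by 0.58 ± 0.10 and 0.51 ± 0.10, and had 0.23 ± 0.10 in the hippocampal line (adjusted p 0.0537). Fzd4 fell in the EYFP and hippocampal lines, by 0.57 and 0.87. Fzd6 was near the minimum, between 2.80 and 4.91 in all libraries, and rose by 0.65 in the tdTomato line and 0.78 in the hippocampal line.

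The R-spondin axis sets how many Frizzled receptors stay at the surface. Znrf3 and Rnf43 are ubiquitin ligases that remove Frizzleds, and R-spondins, bound to Lgr4, Lgr5 or Lgr6, take the ligases away. Lgr4 rose in every line, and Lgr5, Znrf3 and Rnf43 fell in every line. Lgr4 measured 9.10, 9.16 and 9.13 (tdTomato), 9.14, 9.28 and 8.97 (EYFP) and 9.01, 8.82 and 8.85 (hippocampal) in NSCs and 10.64, 10.46 and 10.44 (tdTomato), 10.22, 10.29 and 10.05 (EYFP) and 10.27, 10.00 and 10.02 (hippocampal) in the matching astrocytes. The fates did not overlap, and the changes were 1.38 ± 0.087, 1.06 ± 0.087 and 1.20 ± 0.087.

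Lgr5, a target gene of the pathway and a stem cell marker in other tissues, was highest in traced NSCs, at 8.32, 8.37 and 8.19 (tdTomato) and 8.50, 8.37 and 8.43 (EYFP), against 7.83, 7.86 and 7.64 in hippocampal NSCs. Astrocytes gave 8.19, 8.01 and 7.96 (tdTomato), 7.79, 7.99 and 7.86 (EYFP) and 7.32, 7.01 and 7.06 (hippocampal), with the 3 hippocampal astrocyte libraries lowest of all. NSCs and astrocytes overlapped in the tdTomato line and in no other. The change in the tdTomato line, -0.24 ± 0.094 (adjusted p 0.028), no longer passed the test when the libraries were centred on their medians (adjusted p 0.142) or quantile normalized (0.0817), or when tdTomato NSC replicate 1 (0.0682) or 2 (0.103), or tdTomato astrocyte replicate 2 (0.0772) or 3 (0.11), was left out. The EYFP and hippocampal changes were -0.55 ± 0.094 and -0.65 ± 0.094.

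Znrf3 gave 9.95, 9.83 and 9.84 in tdTomato, 10.34, 10.35 and 10.29 in EYFP and 10.52, 10.56 and 10.38 in hippocampal NSCs, and 9.49, 9.52 and 9.45 (tdTomato), 9.49, 9.46 and 9.38 (EYFP) and 9.04, 9.19 and 9.10 (hippocampal) in astrocytes. Hippocampal cultures had the highest mean as NSCs, and all 3 of their astrocyte libraries were below the traced ones. The changes were -0.39 ± 0.054, -0.88 ± 0.054 and -1.38 ± 0.054, and the differences in change were 0.74 ± 0.066 between origins (adjusted p 7.46e-08) and 0.49 ± 0.076 between the traced lines (adjusted p 4.50e-04).

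Rnf43 (chr11:87662722-87735539, GRCm38, plus strand) had the largest difference between origins of the 41 genes, in both fates. Hippocampal NSCs measured 8.97, 8.91 and 8.97 and hippocampal astrocytes 7.38, 7.49 and 7.81. Traced cultures were far below, at 4.95, 4.59 and 4.40 (tdTomato) and 3.89, 4.13 and 3.77 (EYFP) as NSCs and at 3.31, 2.94 and 3.14 (tdTomato) and 3.31, 2.69 and 2.96 (EYFP) as astrocytes, all of the latter under the minimum, where values appear compressed. Traced minus hippocampal was -4.66 ± 0.16 in NSCs (adjusted p 1.01e-13) and -4.50 ± 0.16 in astrocytes (adjusted p 9.59e-14), and the change on differentiation was -1.52 ± 0.18, -0.94 ± 0.18 and -1.39 ± 0.18. The difference in its change between origins was 0.16, with an interval of -0.31 to 0.63. Rspo3, the R-spondin that reached the minimum, rose in the traced lines by 0.76 ± 0.25 and 0.84 ± 0.25, from values near that minimum. No hippocampal library reached the minimum, and 13.1% of the exon bases of Rspo3 are shared with Gm48159 on the other strand.

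Secreted inhibitors act outside the cell, on the Wnt ligands or, as Dkk proteins do, on the co-receptors. Wif1 rose in every line and the Sfrp1 and Sfrp2 genes fell in every line. Wif1 (Wnt inhibitory factor) measured 7.66, 7.06 and 7.05 in tdTomato NSCs and 11.20, 11.13 and 11.23 in their astrocytes. In the EYFP line the values were 8.01, 8.04 and 7.56 and 10.49, 10.62 and 10.72, and in the hippocampal line 6.08, 6.59 and 6.14 and 7.83, 7.68 and 7.49. Hippocampal astrocytes thus lay in the range of traced NSCs, and every traced astrocyte library was above 10. The rise was 3.93 ± 0.16, 2.74 ± 0.16 and 1.40 ± 0.16 (limma, adjusted p 2.29e-13, 3.90e-11 and 3.56e-07), with differences in change of 1.94 ± 0.20 between origins (adjusted p 4.00e-07) and 1.19 ± 0.23 between the traced lines (adjusted p 0.00247).

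Sfrp1, a secreted decoy related to the Frizzleds, fell by 0.97, 0.999 and 0.64 (SE 0.16 each). Sfrp2 lay between 4.28 and 4.74 in traced NSCs and at 5.81, 5.91 and 5.76 in hippocampal NSCs, and no astrocyte library reached the minimum, the highest being 2.40, so that it entered the test only through its NSCs. Of its exon bases 16.1% are shared with Gm26771 on the other strand. Sfrp4 had 0.31 ± 0.21, 0.32 ± 0.21 and 0.0026 ± 0.21, none of which passed the test. Notum, an enzyme that removes the lipid of Wnt proteins, was low throughout, at 2.27, 2.85 and 2.29 (tdTomato), 2.67, 2.37 and 2.83 (EYFP) and 3.18, 3.77 and 2.85 (hippocampal) in NSCs and 3.48, 2.93 and 2.68 (tdTomato), 3.96, 4.04 and 3.76 (EYFP) and 4.43, 3.77 and 3.76 (hippocampal) in astrocytes. With 7 astrocyte libraries and 1 NSC library at the minimum, it entered the test through its astrocytes, so its higher values there are a description. The fates overlapped in the tdTomato and hippocampal lines and did not in the EYFP line, where the difference was 1.30 ± 0.27 (adjusted p 3.50e-04). The hippocampal difference of 0.72 (adjusted p 0.0237) was lost under quantile normalization (0.231) and without hippocampal NSC replicate 1 (0.0627) or 3 (0.126) or hippocampal astrocyte replicate 1 (0.129). Notum shares 29.4% of its exon bases with Notumos on the opposite strand.

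Of the 9 cytoplasmic components, Nkd1 changed most in every line, and Axin2 came next in the traced lines while it did not pass the test in the hippocampal line. Axin2, the most used target gene of the pathway and a part of the destruction complex, measured 10.28, 10.30 and 10.24 in tdTomato NSCs and 11.75, 11.66 and 11.73 in their astrocytes. EYFP cultures gave 10.50, 10.44 and 10.66 and 11.65, 11.59 and 11.58. Hippocampal cultures gave 10.72, 10.88 and 10.91 and 10.86, 10.87 and 10.80, so that these NSCs were above all traced NSCs, these astrocytes below all traced astrocytes, and their 2 fates overlapped. The changes were 1.44 ± 0.056, 1.07 ± 0.056 and 0.0065 ± 0.056 (limma, adjusted p 1.01e-13, 6.65e-12 and 0.92). The difference in change was 1.25 ± 0.069 between origins (adjusted p 3.00e-10) and 0.37 ± 0.079 between the traced lines (adjusted p 0.00538).

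Nkd1, an antagonist that binds Dishevelled and is itself a target gene, fell in every line. It measured 10.93, 11.17 and 11.13 and 9.17, 8.76 and 8.85 in tdTomato NSCs and astrocytes, 10.92, 10.79 and 10.94 and 9.27, 9.06 and 8.88 in those of the EYFP line, and 10.77, 10.86 and 10.83 and 8.19, 7.96 and 8.13 in those of the hippocampal line. The lines were close as NSCs, and all hippocampal astrocytes were below all traced ones. The changes were -2.15 ± 0.10, -1.81 ± 0.10 and -2.73 ± 0.10, and the difference in change between origins was 0.75 ± 0.13 (adjusted p 1.11e-04).

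The other cytoplasmic genes, those of the destruction complex and its partners, changed by at most 0.62 in any line. Apc and Axin1 fell in every line, by 0.33, 0.31 and 0.29 for Apc and by 0.55, 0.35 and 0.19 for Axin1. Gsk3b fell in the EYFP and hippocampal lines, by 0.26 and 0.47. Ctnnb1, beta-catenin itself, rose by 0.28, 0.15 and 0.14, and 14.6% of its exon bases are shared with Ulk4 on the other strand. Of the Dishevelled genes, which pass the signal from Frizzled to the complex, Dvl2 fell in every line, Dvl1 fell in the traced lines, and Dvl3 in the EYFP and hippocampal lines. Dvl2 shares 18.3% of its exon bases with Acadvl on the other strand.

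Of the transcription factors, Lef1, Tcf7l1 and Tcf7 were called in every line. Lef1, which acts with beta-catenin and is a target gene, measured 5.89, 6.08 and 6.35 (tdTomato), 4.72, 4.82 and 4.67 (EYFP) and 6.42, 6.37 and 6.45 (hippocampal) in NSCs, with the EYFP libraries lowest and apart. Astrocytes gave 6.73, 6.57 and 6.83 (tdTomato), 6.32, 5.98 and 6.45 (EYFP) and 7.09, 7.26 and 7.18 (hippocampal), the hippocampal ones all highest. The rises were 0.60 ± 0.13, 1.51 ± 0.13 and 0.76 ± 0.13, and the traced lines differed in their rise by -0.91 ± 0.19 (tdTomato minus EYFP, adjusted p 0.00373). Of the exon bases of Lef1, 13.8% are shared with Gm43352 on the other strand.

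Tcf7 gave 6.21, 6.37 and 6.68 (tdTomato), 6.04, 5.84 and 5.93 (EYFP) and 6.62, 6.54 and 6.47 (hippocampal) in NSCs. Its astrocytes gave 5.85, 5.63 and 5.10 (tdTomato), 5.52, 5.38 and 5.20 (EYFP) and 6.43, 5.91 and 5.84 (hippocampal), without overlap within a line. The change was -0.89 ± 0.19, -0.57 ± 0.19 and -0.48 ± 0.19, the last of which was lost (adjusted p 0.0705, 0.0891 and 0.107) without hippocampal NSC replicate 1 or hippocampal astrocyte replicate 2 or 3. Tcf7l1, which mainly represses in the absence of the signal, rose by 0.63 ± 0.054, 0.24 ± 0.054 and 0.47 ± 0.054. Tcf7l2 rose in the tdTomato line by 0.34 and in the hippocampal line by 0.16.

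The 8 commonly used target genes on the list moved in both directions. Axin2 rose in the traced lines and Lef1 in all lines, while Nkd1, Znrf3, Rnf43, Lgr5 and Tcf7 fell in all lines. Notum, the eighth, passed the filter only through its astrocytes, so no direction is read from it.

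**Figure D3:**
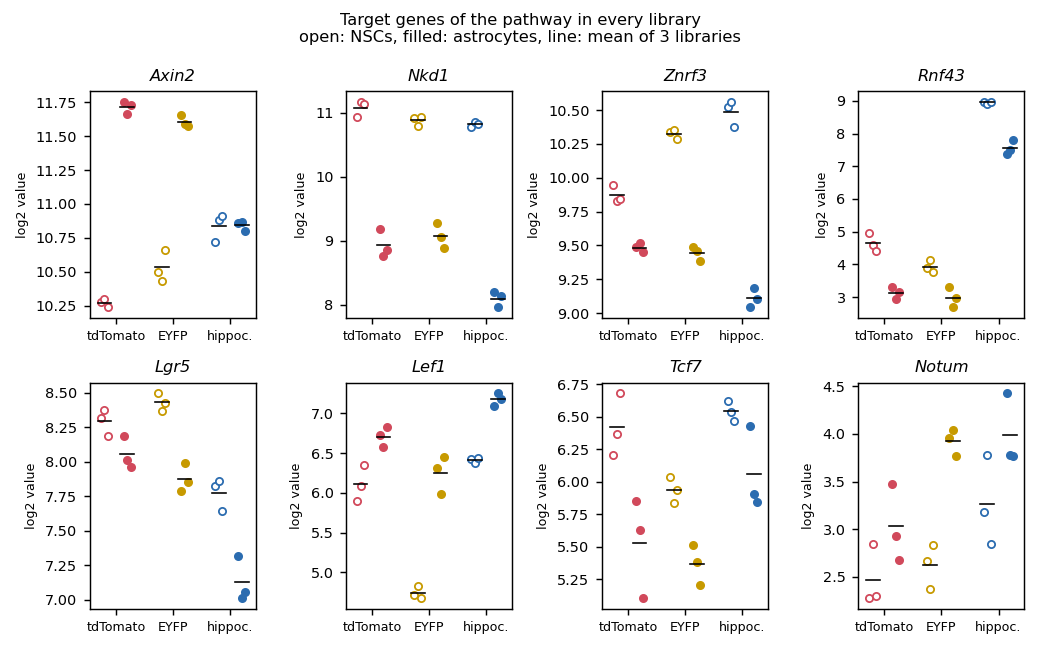
Log2 value (y axis, scale differing between panels and not starting at 0) of 8 target genes of the pathway in each of the 18 libraries by line, NSCs open and astrocytes filled, with a line at each mean of 3. Axin2 rises in both traced lines and stays between 10.72 and 10.91 in the hippocampal line, Nkd1 falls in all lines, and Rnf43 is high in hippocampal cultures of both fates.

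Levels of different genes were set side by side per length of exon, among the 50 genes only. The most abundant receptor, ligand, cytoplasmic gene and transcription factor were the same in both fates. On the log2 scale per kilobase, the mean over the 3 lines was highest among receptors for Fzd9, at 10.8 in NSCs and 9.56 in astrocytes. Below Fzd9, 7 receptors had means between 7.40 and 7.99 in NSCs, and their order differed between lines. In astrocytes Fzd3 came next in the EYFP and hippocampal lines (8.67 and 8.66), and Fzd1 in the tdTomato line (8.91, with Fzd3 at 8.54). Among ligands Wnt5a was highest in every line of both fates, with means of 8.82 in NSCs and 7.58 in astrocytes. Of these ligands Wnt7b was next in each group except hippocampal NSCs, where Wnt7a (8.44) was above Wnt7b (8.07). Wnt9a, a ligand of the wider list below, was not ranked. Among inhibitors Wif1 was above Sfrp1 in EYFP NSCs (6.59 and 5.51) and below it in hippocampal NSCs (4.99 and 5.78), with 5.98 and 5.85 in tdTomato NSCs. In astrocytes Wif1 was above Sfrp1 in every line, with means of 8.54 and 4.84. Ctnnb1 was highest of the cytoplasmic genes (12.3 and 12.5 in NSCs and astrocytes) and Tcf7l1 of the transcription factors (8.22 and 8.67). In the R-spondin axis Znrf3 led in NSCs (7.25) and Lgr4 in astrocytes (7.71).

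**Figure D4:**
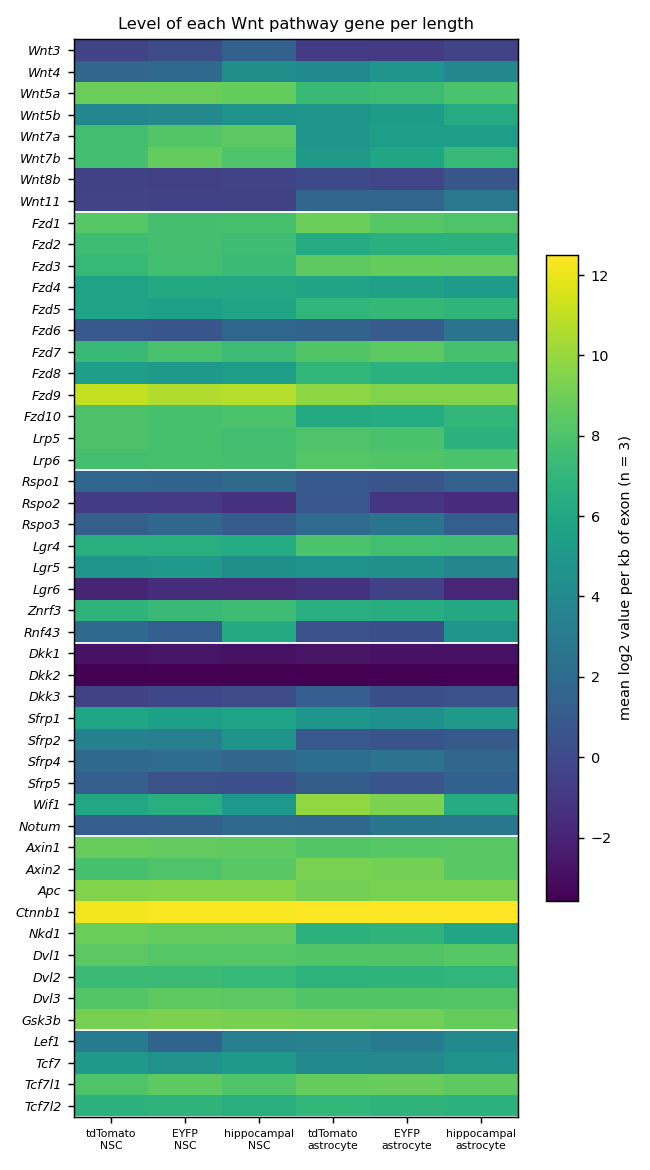
Mean log2 value per kilobase of exon (colour, n = 3) of the 50 Wnt pathway genes (rows, white lines between roles) in the 6 groups (columns). Ctnnb1 is the brightest row in every group, Fzd9 is the highest receptor, and Wif1 brightens in traced astrocytes.

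Between traced and hippocampal cultures more genes were called as astrocytes than as NSCs, in the pathway as in the whole table. As NSCs 8 of the 41 genes were higher and 11 lower in the traced lines, against 17% and 14.9% of all genes tested. As astrocytes 19 were higher and 16 lower, against 27.9% and 31.9% of all genes. The median absolute difference was 0.22 in NSCs (all genes 0.13) and 0.49 in astrocytes (all genes 0.24), and the signed medians were 0.050 and 0.039 (all genes 0.0079 and -0.012). When both traced lines were taken as 1 group of 6 against 3, so that the difference between them counted as spread, the calls were 13 in NSCs and 26 in astrocytes.

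In NSCs the traced lines were lower in Rnf43 by 4.66, in Wnt4 by 2.50 and in Sfrp2 by 1.32, and higher in Wif1 by 1.29 and in Lgr5 by 0.59. Axin2 was lower as well, at -0.44 ± 0.049 (adjusted p 1.46e-06), as were Znrf3 by 0.39, Fzd6 by 0.999 and Lef1 by 0.99. The calls of Lef1 (adjusted p 0.114) and Znrf3 (0.0734) were lost in the comparison of 6 against 3, and the traced lines differed from each other in both genes.

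In astrocytes the traced lines were higher in Wif1 by 3.23 (adjusted p 1.84e-12), Lrp5 by 1.22, Nkd1 by 0.91, Lgr5 by 0.84 and Axin2 by 0.82. Rspo3 differed by 1.12, a direction set by the filter, which it passed only through traced libraries. They were lower in Rnf43 by 4.50, Wnt7b by 1.72 (adjusted p 1.63e-11), Fzd6 by 1.28, Wnt5b by 1.22, Wnt11 by 1.09 and Fzd10 by 0.74. Of the 6 tested ligands of the first list 5 were lower in traced astrocytes (31.9% of all genes were). Of these, Wnt7a overlapped between EYFP and hippocampal astrocytes, and its tdTomato astrocytes were below both. Wnt4 was higher, by 0.59 (adjusted p 0.0399), although the tdTomato and hippocampal astrocytes overlapped and the EYFP astrocytes were all above both. Wnt9a, a ligand of the wider list below, lay between 7.41 and 8.31 in traced and between 6.58 and 6.84 in hippocampal astrocytes. Wnt2b, also of the wider list, overlapped between origins. Of the 12 receptors 7 were higher and 3 lower (27.9% and 31.9% of all genes).

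**Figure D5:**
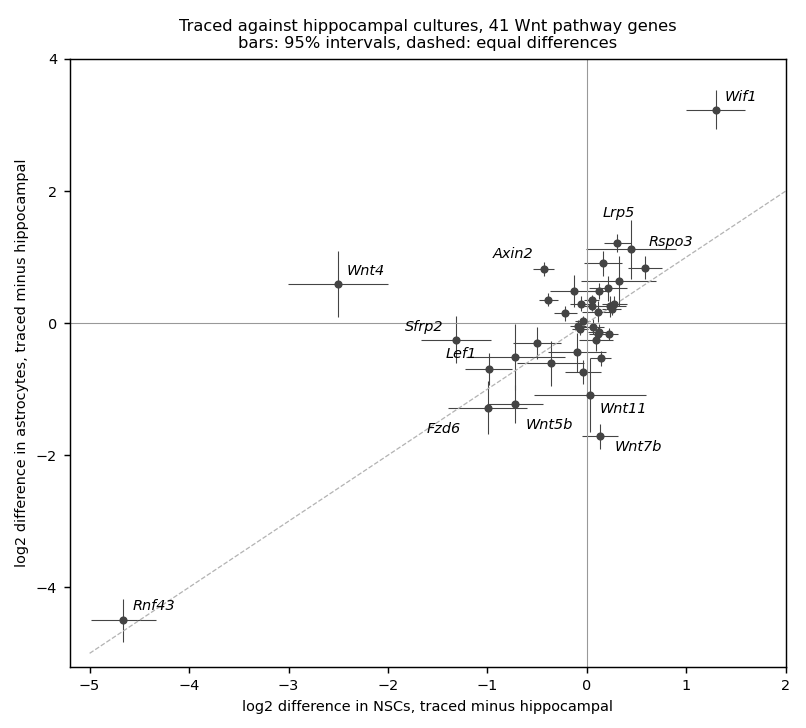
Log2 difference between traced (mean of both lines) and hippocampal cultures in NSCs (x axis) and in astrocytes (y axis) for the 41 tested Wnt pathway genes, with 95% intervals and a dashed line of equal differences. Rnf43 lies near the dashed line at -4.66 and -4.50, Wif1 lies above it at 1.29 and 3.23, and Wnt4 has opposite signs at -2.50 and 0.59.

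The change on differentiation itself differed between traced and hippocampal lines in 23 of the 41 genes, 14 with a higher and 9 with a lower value in the traced lines, against 20.3% and 25.9% of all genes tested. The positive differences of at least 1 belonged to Wnt4, Wif1, Axin2 and Sfrp2, the last (1.07) resting on NSC levels since all its astrocytes were under the minimum. The negative ones belonged to Wnt7b and to Wnt11 (-1.12), the latter resting on astrocyte levels since all its NSCs were under the minimum. Those of the 4 transcription factors ranged from -0.25 to 0.29.

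The traced lines also differed from each other, with more calls as NSCs than as astrocytes in the pathway as in the whole table. As NSCs 8 genes were higher and 12 lower in the tdTomato line than in the EYFP line (16.4% and 14.9% of all genes), with a median absolute difference of 0.23 (all genes 0.15). Lef1 had the largest difference, 1.37 ± 0.13 (adjusted p 6.96e-07), and Wnt7b was lower in the tdTomato line by 0.96 (adjusted p 1.85e-06). Fzd7 was lower by 0.61, Wif1 by 0.61, Wnt7a by 0.56 and Axin2 by 0.26, and Rnf43 was higher by 0.72 and Fzd1 by 0.55.

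As astrocytes 6 genes were higher and 6 lower in the tdTomato line, against 7.06% and 7.31% of all genes, with a median absolute difference of 0.19 (all genes 0.10). The count of 12 fell to 7 when the 2 groups were fitted alone and to 7 without tdTomato astrocyte replicate 2. Wnt7b remained lower by 0.86 (adjusted p 9.94e-06) and Wnt7a by 0.59, Fzd1 was higher by 0.62, and Wif1 had turned to higher, by 0.58 (adjusted p 0.0217). Axin2 gave 0.11 ± 0.056 and did not pass the test. The Lef1 difference of 0.46 (adjusted p 0.0241) was lost in the fit of the 2 groups alone (0.08) and without tdTomato astrocyte replicate 1 (0.0556) or 3 (0.0986) or EYFP astrocyte replicate 2 (0.109). The Notum difference of -0.89 (adjusted p 0.0362) was lost with no filter on low values (0.0756) and in the fit of the 2 groups alone (0.0626). It was also lost when any 1 of 5 of the 6 libraries was left out (all but tdTomato astrocyte replicate 1).

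The change on differentiation differed between the traced lines in 11 genes, 9 higher and 2 lower in the tdTomato line, against 6.36% and 6.98% of all genes. The count was 7 when limma was fitted without a variance trend, and 7 without tdTomato NSC replicate 3 or without EYFP NSC replicate 2. Wif1 (1.19) and Lef1 (-0.91) had the largest values. Fzd4 (0.62), Dvl3 (0.34) and Tcf7l1 (0.39) were also higher.

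A wider list of 72 further ligands, co-receptors, secreted, cytoplasmic and nuclear regulators, planar polarity genes and targets, chosen like the first with earlier results known, had 66 genes in the table and 58 tested. In the mean of the lines 28 rose and 27 fell on differentiation, beside the same background of 44.3% and 42%. The median absolute change was 0.53, beside 0.86 for the 41 genes above and 0.50 for all genes. By line 27 rose and 22 fell in the tdTomato line (39.9% and 38.5% of all genes), 23 and 25 in the EYFP line (38.2% and 37%), and 24 and 24 in the hippocampal line (39% and 37.3%).

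Among the wider list 8 genes were called with a change of at least 1 in the same direction in all 3 lines, 6 higher and 2 lower in astrocytes, where 9.06% and 6.68% of all genes tested were. Wnt9a, a further ligand, measured 4.29, 4.14 and 4.18 (tdTomato), 4.07, 3.33 and 3.95 (EYFP) and 4.09, 4.18 and 4.34 (hippocampal) in NSCs and 8.31, 7.80 and 7.76 (tdTomato), 7.81, 7.73 and 7.41 (EYFP) and 6.84, 6.65 and 6.58 (hippocampal) in astrocytes. It rose by 3.76, 3.87 and 2.49, more in the traced lines (difference in change 1.33 ± 0.23, adjusted p 1.12e-04). Daam2, a Dishevelled partner, rose by 2.94, 2.40 and 3.42, and Draxin, a secreted antagonist and guidance protein, by 2.13, 1.86 and 2.27.

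Bambi, a BMP pseudoreceptor, rose by 1.24, 1.19 and 1.20, Apc2 by 1.86, 1.46 and 1.18, and Cd44, an adhesion receptor, by 1.08, 1.58 and 2.56. Ccnd1, the gene of cyclin D1 and a target gene that growth factors also control, fell by 3.63, 3.52 and 2.50, alongside the fall of Mki67 given above. Kremen1, a Dkk receptor, fell by 1.31, 1.69 and 1.56. Celsr3, a planar polarity cadherin, was lower in traced cultures of both fates, by 1.18 in NSCs and 1.12 in astrocytes.

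Between traced and hippocampal cultures the wider list had 14 genes higher and 12 lower as NSCs (17% and 14.9% of all genes) and 20 higher and 23 lower as astrocytes (27.9% and 31.9%), with median absolute differences of 0.16 and 0.28 (all genes 0.13 and 0.24). Between the traced lines 10 were higher and 17 lower in tdTomato NSCs (16.4% and 14.9% of all genes), and 8 higher and 5 lower in tdTomato astrocytes (7.06% and 7.31%).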

How the data were processed

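Total RNA of 18 cultures was sequenced as poly(A) libraries. The authors trimmed reads with Trimmomatic 0.36, aligned them to GRCm38 with STAR 2.5.2, estimated gene levels with RSEM 1.3.0 and normalised them with DESeq2 1.18.1 in R 3.4.3. The deposited values are on a log2 scale (from -2.15 to 18.9, 29.4% below 0) and have the form of a regularized log, in which low genes are pulled towards their mean. The transform is not given in the sources used here. The table holds no counts, so the exact depth per library is unknown and no counting interval was given.

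Symbols came from GENCODE M21, exon lengths and coordinates from GRCm38. Groups followed the sample titles. A linear model with 6 group means over all 18 libraries was fitted in limma 3.58.1 (R 4.3.3, eBayes with trend) to 15448 genes, those that reached 3.32 on the log2 scale in 3 or more libraries, with Benjamini-Hochberg adjustment over them. Origins were compared with equal weight for both traced lines. Errors are standard errors and intervals are 95%. The fit was tested on simulated data. Values per library are given for genes called with a difference of at least 1, without overlap of the groups and with a mean of at least 100 on the linear scale in the higher group, and for 8 target genes. The members, lists and rules were chosen with earlier results of these data known. Alternatives covered the filter, scaling, pseudocount, variance trend, samples in the fit, a replicate block and each library left out. Some markers of the cell type lists are not reported here.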

Additional observations from a re-analysis of the deposited data

Results flagged for a closer look

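The change from NSCs to astrocytes was compared between origins and between the traced lines by an interaction contrast in limma. Of the 22 genes described library by library, 13 differed between the traced lines and the hippocampal line, 8 with a higher and 5 with a lower value in the traced lines, beside 20.3% and 25.9% of all genes tested. Most of the 22 genes were chosen for large changes or differences between lines, so nothing is read from their count. The higher values were 3.10 (Wnt4), 1.94 (Wif1), 1.25 (Axin2), 0.91 (Lrp5), 0.75 (Nkd1), 0.74 (Znrf3), 0.37 (Fzd5) and 0.36 (Fzd8). The lower values were -1.85 (Wnt7b), -0.70 (Fzd10), -0.67 (Wnt5a), -0.50 (Wnt5b) and -0.34 (Fzd2). Wnt4 was lower in both traced lines than in the hippocampal line as NSCs, while as astrocytes the tdTomato libraries overlapped the hippocampal ones and the EYFP libraries were above them.

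Between the tdTomato and EYFP lines 6 of the 22 genes differed in their change, 4 higher and 2 lower in the tdTomato line, beside 6.36% and 6.98% of all genes tested. The values were 1.19 (Wif1), 0.49 (Znrf3), 0.37 (Axin2) and 0.31 (Fzd3) in favour of the tdTomato line and -0.91 (Lef1) and -0.42 (Fzd5) in favour of the EYFP line. These are differences between 2 lines of the same labelled origin. Both comparisons use the traced libraries.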

How the results depend on the processing

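The alternatives were run for 112 results of the 22 genes described library by library, and not for single results of the other genes. None of the 112 changed direction. Of the 3020 values recomputed, 2986 kept direction and side of the threshold and 34 lost their call, those of Notum, Lgr5, Tcf7, Lef1 and Znrf3. The count for the difference in change between the traced lines went from 11 to 7 without a variance trend, and that between traced astrocytes from 12 to 7 with only the groups compared (an alternative not run where all 6 groups enter the comparison). Leaving out 1 library at a time moved the counts as follows: fate, all lines 40 to 41, tdTomato line 33 to 35, EYFP line 36 to 37, hippocampal line 33 to 36, traced against hippocampal NSCs 16 to 21 and astrocytes 29 to 35, tdTomato against EYFP NSCs 14 to 21 and astrocytes 7 to 13, and the differences in change 19 to 24 (origins) and 7 to 12 (traced lines). The replicate block gave 40, 35, 37, 37, 19, 34, 23, 12, 23 and 12 in that order. Same-numbered libraries of a fate in different lines deviated together with a mean r of 0.106 over 18 pairs (0.0117 to 0.31). Differently numbered libraries of a fate in different lines gave -0.0532 over 36 pairs (-0.345 to 0.12). Same-numbered libraries of a line gave -0.024 over 9 pairs. The main fit did not pair the samples by number, and the replicate block above is the fit that used the numbers. Other scalings moved the median of all genes by at most 0.0862. The depth of each library is not known beyond the approximate read number per sample that the paper states. Low genes appear compressed in the deposited values.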
